A study of Mus musculus with 16 samples.

Results

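The leptomeninges, the thin membranes that cover the cortex, are built by fibroblasts that make membrane transporters and secreted factors in addition to collagen. A set of 10 genes known from these cells and encoding no matrix protein, namely *Igf2*, *Igfbp2*, *Slc22a6*, *Slc6a13*, *Slc13a4*, *Slc47a1*, *Ptgds*, *Aldh1a2*, *Crabp2* and *Foxc2*, was followed through the cortex of 16 mice as a measure of meningeal tissue in the samples. The genes were listed by name with earlier results of these data known, so the number of them called is a description and no independent test. All 10 were found among the 39179 gene identifiers of the count table. The mice formed 4 groups of 4, wild-type (*MRPS5* WT) and homozygous *MRPS5* V338Y animals, each at 3 and at 19 months of age. V338Y exchanges 1 amino acid of MRPS5, a mitochondrial ribosomal protein, and the mutant mice carry it in every tissue, and no group received a treatment. Each library came from the frozen cortex of 1 mouse, without sorting of cells.

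Meningeal fibroblasts lie between the skull and the glial surface of the brain and form a barrier towards the blood and the cerebrospinal fluid. Their transporters move organic anions, GABA, taurine, sulfate and organic cations between these compartments, and their secreted products, among them insulin-like growth factor 2, prostaglandin D2 synthase and the retinoic acid they synthesize, act on the cortex below. In a dissected cortex they are a small admixture, since most RNA comes from neurons and glia. Several of the genes are not restricted to fibroblasts: *Igf2*, *Igfbp2* and *Ptgds* are also known from the choroid plexus, *Ptgds* from oligodendrocytes and *Foxc2* from lymphatic vessels. In bulk tissue, a change in the number of cells of a type and a change in the RNA that each cell makes cannot be told apart.

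Before the genes themselves, some properties of the libraries matter. Sequencing depth ranged from 6181448 counts in 19-month-old wild-type mouse 15 to 19601664 counts in 3-month-old V338Y mouse 14. *Mrps5* itself had a mean of 39.3 CPM (library counts scaled to a common depth, with TMM factors) in both 3-month-old groups and of 30.2 CPM in wild-type and 30.3 CPM in V338Y mice at 19 months, which checks the labels no further because the mutation exchanges a codon and removes no transcript. The methods describe female animals only, whereas transcripts of the Y chromosome were present in all 3-month-old and at 0 counts in all 19-month-old libraries, with *Xist* the other way round. The summed level of 10 cerebellum markers was 305 to 1564 CPM in the young and 145 to 175 CPM in the old libraries. The 305 CPM were those of the young V338Y mouse 14, and the young wild-type mice had 777 to 1194 CPM. In the old mice the sums were 145 to 152 CPM in wild-type and 165 to 175 CPM in V338Y animals, which did not overlap. The sample names of all 19-month-old libraries also end in an N that those of the 3-month-old libraries lack, and the labels do not explain it. Age, these sex-linked transcripts, the share of cerebellum and whatever the N marks cannot be told apart in any comparison of 19 with 3 months. Among the 19-month-old V338Y mice, the 14 choroid plexus markers summed to 2318 and 2366 CPM in mice 17 and 18 and to 166 and 272 CPM in mice 19 and 20, so that the genotype differences of the 10 genes at 19 months are also given without mice 17 and 18 where a call changed or a value moved by over 1.5 times.

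The 10 genes lie on 9 chromosomes. Coordinates are those of the GENCODE M21 annotation of GRCm38, in which each of them is a protein-coding gene. *Igf2* (chromosome 7, 142650766 to 142666816, minus strand) encodes insulin-like growth factor 2, and *Igfbp2* (chromosome 1, 72824503 to 72852474, plus strand) a secreted protein that binds it. *Slc22a6* (chromosome 19, 8618039 to 8628299, plus strand) encodes the organic anion transporter OAT, *Slc6a13* (chromosome 6, 121300227 to 121337733, plus strand) a transporter of GABA and taurine, *Slc13a4* (chromosome 6, 35267957 to 35308131, minus strand) a sodium-coupled sulfate transporter and *Slc47a1* (chromosome 11, 61343401 to 61378345, minus strand) an exporter of organic cations. *Ptgds* (chromosome 2, 25466709 to 25470046, minus strand) encodes the lipocalin-type synthase of prostaglandin D2. Retinoic acid is made by the product of *Aldh1a2* (chromosome 9, 71215789 to 71296243, plus strand) and carried to its nuclear receptors by that of *Crabp2* (chromosome 3, 87948666 to 87953376, plus strand). *Foxc2* (chromosome 8, 121116171 to 121118895, plus strand) encodes a forkhead transcription factor. *Igf2* shares 98 exonic bases with the antisense gene *Igf2os* and 3596 with the gene model *Gm49394* on its own strand, so a part of its counts is uncertain. None of the other 9 genes shares exonic bases with an annotated neighbour.

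Promoter sequence was available from RefSeq (GRCm38.p6) for 7 of the 10 genes, with 13 start sites in all. The 250 bases before a start are shown for *Slc22a6*, which was lower in old V338Y than in old wild-type mice, for *Slc13a4* and *Aldh1a2*, whose levels followed the mean of the other members most closely, and for the first start of *Igf2*. The windows lie outside annotated exons apart from a few bases of *Slc13a4*, whose GENCODE model starts slightly earlier. They are written 5′ to 3′ along the gene, and capitals mark the letters GGGCGG (GC box, in *Slc13a4*) or AGGTCA (nuclear receptor half-site, in *Igf2*, on the opposite strand).
Slc22a6 (chr19:8617746-8617995, plus strand): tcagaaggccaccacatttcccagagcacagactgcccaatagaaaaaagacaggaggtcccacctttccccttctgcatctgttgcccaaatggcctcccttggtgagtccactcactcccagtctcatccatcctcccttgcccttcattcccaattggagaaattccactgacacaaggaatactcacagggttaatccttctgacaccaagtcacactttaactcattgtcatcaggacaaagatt
Slc13a4 (chr6:35308127-35308376, minus strand): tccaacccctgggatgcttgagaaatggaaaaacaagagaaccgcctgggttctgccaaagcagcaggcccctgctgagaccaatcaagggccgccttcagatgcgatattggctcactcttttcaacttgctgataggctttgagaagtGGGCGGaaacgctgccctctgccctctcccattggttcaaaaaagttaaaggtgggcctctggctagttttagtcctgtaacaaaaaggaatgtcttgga
Aldh1a2 (chr9:71215539-71215788, plus strand): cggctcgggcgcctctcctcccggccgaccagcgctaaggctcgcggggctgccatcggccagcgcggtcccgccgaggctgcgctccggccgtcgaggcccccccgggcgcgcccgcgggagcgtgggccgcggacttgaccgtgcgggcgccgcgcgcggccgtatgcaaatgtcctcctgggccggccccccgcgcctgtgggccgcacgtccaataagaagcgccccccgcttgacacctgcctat
Igf2 (chr7:142666817-142667066, minus strand): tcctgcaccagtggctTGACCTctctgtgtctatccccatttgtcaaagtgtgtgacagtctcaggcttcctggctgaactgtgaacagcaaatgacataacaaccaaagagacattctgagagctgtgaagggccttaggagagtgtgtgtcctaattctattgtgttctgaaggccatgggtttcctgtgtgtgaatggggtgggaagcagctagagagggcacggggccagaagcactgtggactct
The GC box, searched on both strands, was found before 5 of the 13 starts, those of *Igf2* (at 2 starts), *Igfbp2*, *Slc6a13* and *Slc13a4*. It is present in 32.7% of the 32851 mouse promoter windows of the same length, so it is a common motif. In *Slc6a13* it begins at positions -187 and -50, and in *Slc13a4* at position -100, counted from the base before the start as -1. The half-site of nuclear receptors (AGGTCA), which retinoic acid receptors read in pairs, was found before 1 of the 4 starts of *Igf2* and 1 of the 3 starts of *Slc6a13*, against 14% of all windows. Neither TATAAA (12.4% of windows) nor the forkhead core GTAAACA (3.17%) occurred in the 13 windows, none overlapped another motif, and the windows of *Slc22a6*, *Aldh1a2* and *Ptgds* held no match.

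Levels were compared between genes per kilobase of exon. *Ptgds* was far above the others, with group means of 382 to 1166 CPM per kilobase, and made up 83% to 86.6% of the summed CPM of the 10 genes in the 16 mice. *Igfbp2* followed with 20.7 to 43.1 CPM per kilobase. *Igf2* (3.75 to 14.2), *Slc6a13* (3.89 to 15.1), *Slc13a4* (3.25 to 10.1) and *Aldh1a2* (3.47 to 10.2 CPM per kilobase) formed a middle tier with overlapping ranges. *Slc22a6*, *Crabp2* and *Slc47a1* lay between 1.36 and 5.60 CPM per kilobase, and *Foxc2* was lowest with 0.50 to 1.02. The lower tier rested on few reads, with 16 to 74 counts per mouse for *Crabp2*, 35 to 142 for *Slc47a1* and 8 to 47 for *Foxc2*.

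In wild-type mice, 19 against 3 months of age, all 10 genes were higher in the old animals, by log2 fold changes of 0.38 to 2.04 with a median of 1.53. A gene was called where its Benjamini-Hochberg adjusted p over 16101 genes was under 0.05 in the quasi-likelihood test of edgeR, with 4 mice in each group. Against this stands a broad background, as 31.4% of all tested genes were called higher and 31.5% lower, with a median log2 fold change of -0.005. The groups did not overlap for 9 of the 10 genes, and were apart in this direction for 26.9% of all genes. *Igf2* measured 25.1, 16.5, 23.0 and 21.3 CPM in the 3-month-old wild-type mice 9 to 12 and 81.3, 87.4, 80.7 and 75.2 CPM in the 19-month-old mice 12 to 15. Every old mouse was thus well above every young one, a rise of 3.899-fold (log2 fold change 1.96, standard error 0.09, adjusted p = 2.9e-12, edgeR). Its binding protein *Igfbp2* rose less, from 39.6 ± 4.04 to 79.2 ± 13.5 CPM (SD, n = 4; log2 fold change 1.04, adjusted p = 9.3e-05, edgeR).

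The transporters were among the strongest. *Slc6a13* rose from 15.6, 7.67, 10.6 and 11.4 CPM in the young to 44.2, 49.7, 45.6 and 35.5 CPM in the old wild-type mice (log2 fold change 2.04, standard error 0.19, adjusted p = 2.8e-05, edgeR). *Slc22a6* went from 6.53, 4.69, 4.87 and 7.92 CPM to 24.4, 25.4, 18.6 and 20.8 CPM (log2 fold change 1.94, standard error 0.14, adjusted p = 1.9e-10, edgeR). Both were higher in every old than in every young animal. *Slc13a4* rose from 15.1 ± 3.53 to 45.5 ± 6.67 CPM (SD, n = 4; log2 fold change 1.66, adjusted p = 5.5e-05, edgeR). The organic cation exporter *Slc47a1* stood apart from these 3 with a change from 4.58 ± 0.45 to 5.87 ± 0.18 CPM (SD, n = 4; log2 fold change 0.38, standard error 0.15, adjusted p = 0.0267, edgeR). That call was lost with DESeq2 (adjusted p = 0.078), in the fit of all 16 mice with edgeR (adjusted p = 0.11), and with edgeR without the young wild-type mouse 10 (adjusted p = 0.0956), the young mouse 11 (0.0524) or the old mouse 14 (0.0581).

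*Ptgds* measured 750, 595, 655 and 680 CPM in the young and 2152, 2141, 1779 and 1618 CPM in the old wild-type mice. The lowest old value was more than the highest young value, and the log2 fold change was 1.53 (standard error 0.12, adjusted p = 3.1e-05, edgeR). *Aldh1a2* rose by the same log2 fold change of 1.53, from 8.32 ± 1.48 to 23.1 ± 2.95 CPM (SD, n = 4; adjusted p = 4.3e-12, edgeR). *Crabp2* rose from 1.97, 2.12, 2.04 and 3.18 CPM to 5.96, 5.54, 4.76 and 4.06 CPM (log2 fold change 1.16, standard error 0.19, adjusted p = 4.8e-06, edgeR). For *Foxc2* the groups overlapped, since the young mouse 9 with 2.46 CPM was above the old mice 14 and 15 with 2.38 and 1.35 CPM (log2 fold change 1.04, standard error 0.29, adjusted p = 0.0027, edgeR).

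**Figure D1:**
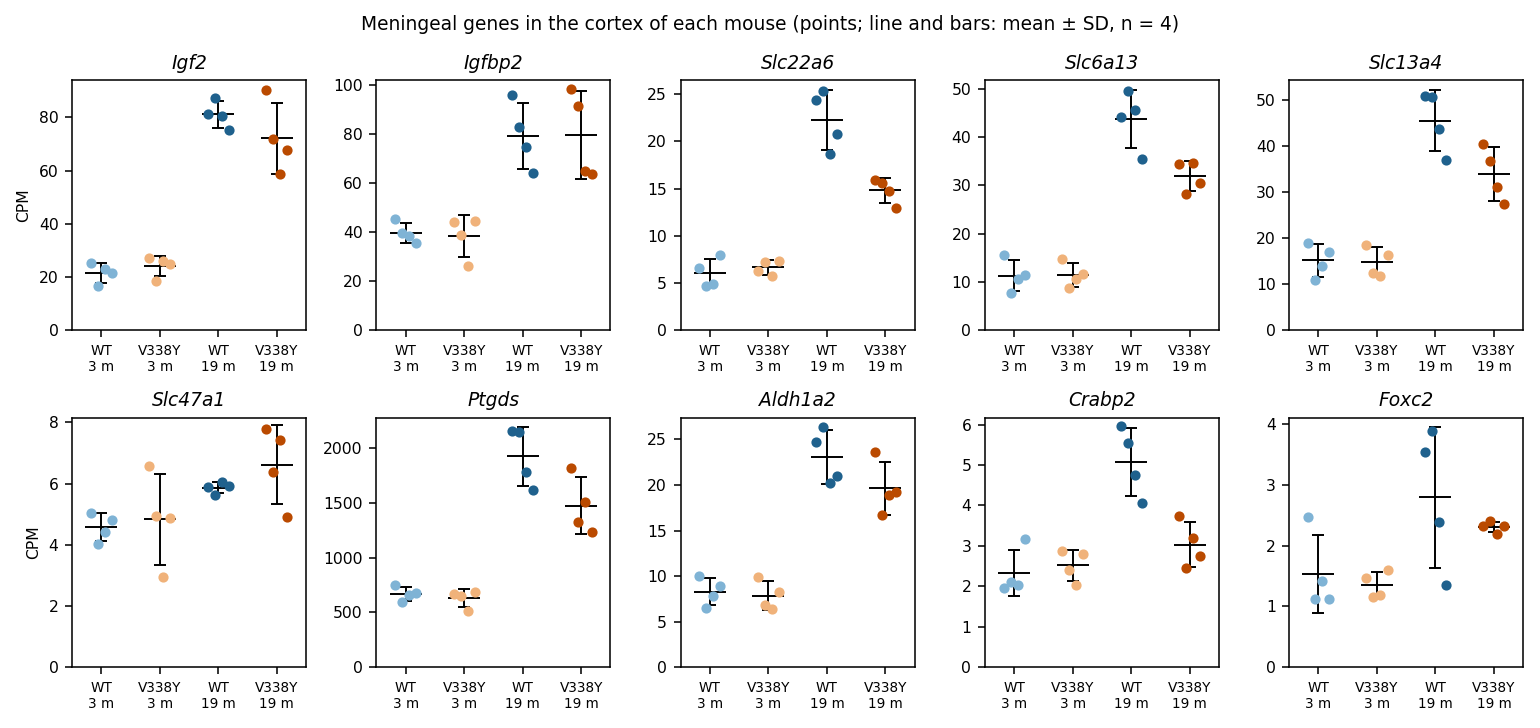
CPM (y axis) of the 10 meningeal genes in each mouse (points), by genotype and age (x axis), with the mean and SD of each group of 4 as a line and bars. *Ptgds* reached 2152 CPM in an old wild-type mouse, the old groups were above the young ones for most genes, and for *Slc22a6*, *Slc6a13* and *Crabp2* the old V338Y mice were all below the old wild-type mice.

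In V338Y mice, 8 of the 10 genes were higher at 19 than at 3 months and the groups of the same 8 did not overlap, with a median log2 fold change of 1.16 over the 10. In this comparison 23.1% of the 16770 tested genes were called higher and 25.7% lower, 22.2% had old values all above the young ones, and the median of all genes was -0.03. *Igf2* had 26.98, 18.4, 26.0 and 24.9 CPM in the young V338Y mice 13 to 16 and 90.3, 72.0, 58.6 and 67.7 CPM in the old mice 17 to 20 (log2 fold change 1.57, standard error 0.16, adjusted p = 4.6e-05, edgeR). *Slc6a13* rose from 14.7, 8.71, 10.5 and 11.52 to 34.5, 28.2, 34.6 and 30.5 CPM (log2 fold change 1.49, standard error 0.14, adjusted p = 6.9e-06, edgeR). *Slc22a6* rose from 6.25, 7.25, 5.76 and 7.31 to 15.9, 15.6, 14.8 and 12.98 CPM (log2 fold change 1.14, standard error 0.11, adjusted p = 2.8e-06, edgeR). In all 3 genes the lowest old mouse was above the highest young mouse.

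The remaining calls in V338Y mice were *Aldh1a2* (log2 fold change 1.30), *Ptgds* (1.22), *Slc13a4* (1.19), *Igfbp2* (1.04) and *Foxc2* (0.76), with adjusted p-values (edgeR) of 1.2e-05 for *Aldh1a2* to 0.0050 for *Foxc2*. *Ptgds* measured 672, 651, 511 and 685 CPM in the young and 1818, 1323, 1507 and 1233 CPM in the old animals. *Crabp2* was 2.87, 2.42, 2.04 and 2.79 CPM in the young and 3.73, 2.46, 3.19 and 2.75 CPM in the old V338Y mice, which overlap (log2 fold change 0.24, standard error 0.18, adjusted p = 0.294, edgeR). *Slc47a1* overlapped as well, at 2.95 to 6.57 CPM in the young and 4.90 to 7.77 CPM in the old mice (log2 fold change 0.43, standard error 0.21, adjusted p = 0.105, edgeR). It passed the threshold in the fit of all 16 mice (adjusted p = 0.0366, edgeR) and without the young mouse 13 (adjusted p = 0.0313, edgeR). Without the old mice 17 and 18, a setting added once the values had been looked at, 8 genes were again called.

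**Figure D2:**
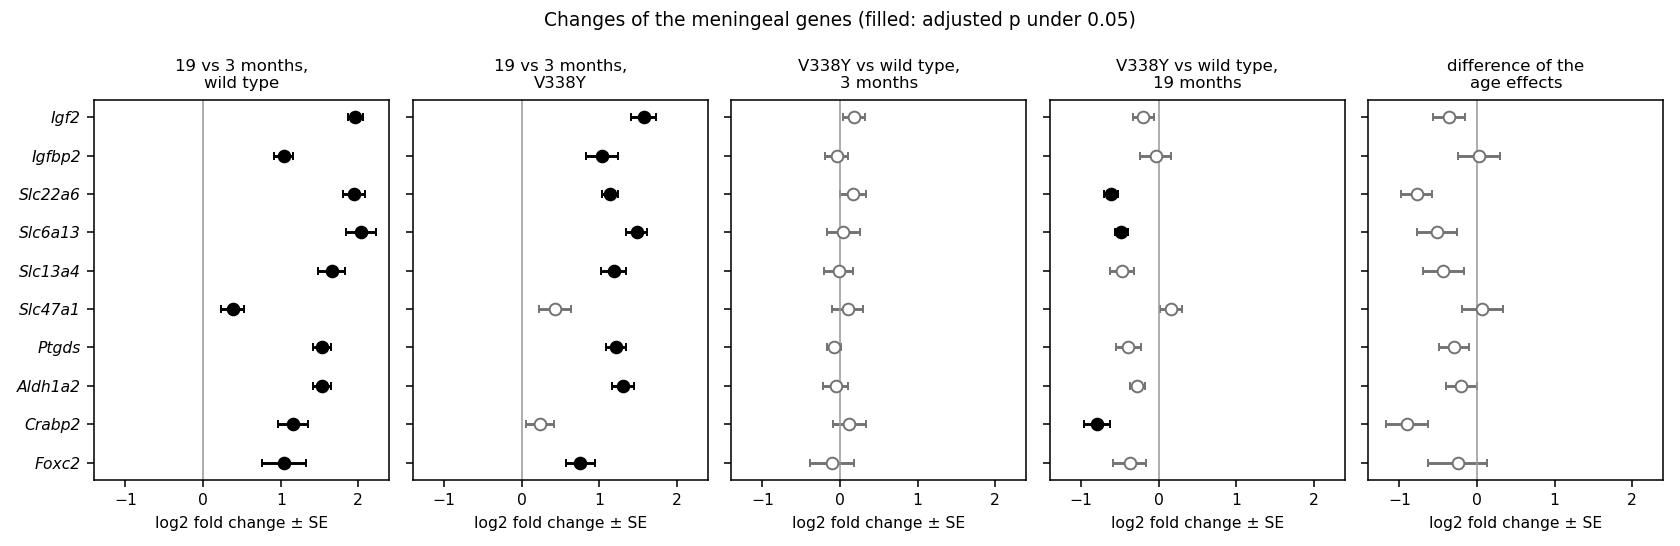
Log2 fold change with its standard error (x axis) of the 10 genes (y axis) in the 4 pairwise comparisons and for the difference of the age effects, V338Y minus wild type. Filled points passed an adjusted p of 0.05 (edgeR), which holds for 10 genes by age in wild type, 8 by age in V338Y, 0 by genotype at 3 months, 3 by genotype at 19 months and 0 for the difference.

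At 3 months of age, V338Y and wild-type mice were not distinguished by any of the 10 genes. Their log2 fold changes were between -0.11 for *Foxc2* and 0.18 for *Igf2*, with standard errors of 0.09 to 0.29 and a median of 0.01. The count was 0 with edgeR's quasi-likelihood test, with its likelihood-ratio test and with DESeq2, and 0 genes had an unadjusted p under 0.05, in a comparison in which 0.0616% of 16241 genes were called in either direction. The mean of *Slc22a6* was 6.003 ± 1.52 CPM in wild-type and 6.64 ± 0.76 CPM in V338Y mice (SD, n = 4), and that of *Slc6a13* 11.3 ± 3.30 and 11.4 ± 2.52 CPM. *Crabp2* was 2.33 ± 0.57 CPM in wild-type and 2.53 ± 0.38 CPM in V338Y mice. These differences lay within the spread between mice. With each mouse left out in turn, among them the V338Y mouse 14 with 305 CPM of cerebellum markers, the count stayed 0.

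At 19 months of age, 3 of the 10 genes were lower in V338Y than in wild-type mice, namely *Slc22a6*, *Slc6a13* and *Crabp2*, and in all 3 the groups did not overlap. Among the 16420 genes tested, 1.94% were called lower and 1.2% higher, and 4.83% had V338Y values all below the wild-type values. *Slc22a6* measured 24.4, 25.4, 18.6 and 20.8 CPM in the wild-type mice 12 to 15 and 15.9, 15.6, 14.8 and 12.98 CPM in the V338Y mice 17 to 20, which is 0.652 of the wild-type level (log2 fold change -0.62, standard error 0.09, adjusted p = 6.7e-05, edgeR). *Slc6a13* was at 44.2, 49.7, 45.6 and 35.5 CPM in wild-type and 34.5, 28.2, 34.6 and 30.5 CPM in V338Y mice, or 0.717 of the wild-type level (log2 fold change -0.48, standard error 0.09, adjusted p = 0.0048, edgeR). The highest V338Y mouse came close to the lowest wild-type mouse, the number 15, which is also the library of lowest depth. *Crabp2* was at 5.96, 5.54, 4.76 and 4.06 CPM against 3.73, 2.46, 3.19 and 2.75 CPM, or 0.575 of the wild-type level (log2 fold change -0.80, standard error 0.17, adjusted p = 0.0042, edgeR).

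The other 7 genes did not pass the test at 19 months. *Slc13a4* was 45.5 ± 6.67 CPM in wild-type and 33.9 ± 5.83 CPM in V338Y mice (SD, n = 4; log2 fold change -0.47, standard error 0.15, adjusted p = 0.191, edgeR), and *Ptgds* 1923 ± 267 and 1470 ± 258 CPM (log2 fold change -0.39, standard error 0.16, adjusted p = 0.30, edgeR). For both, the V338Y mouse 17 lay within the wild-type range and the other 3 below it. *Foxc2* differed by a log2 fold change of -0.37, *Aldh1a2* by -0.27, *Igf2* by -0.20, *Igfbp2* by -0.04 and *Slc47a1* by 0.16, with adjusted p-values (edgeR) of 0.154 or more. The log2 fold change was below 0 for 9 of the 10 genes and for 50.3% of all genes, and the median of the 10 was -0.38 against -7e-04 for all genes. Without the V338Y mice 17 and 18, whose libraries have the highest choroid plexus markers, 5 genes were called lower, with *Igf2* (log2 fold change -0.37, adjusted p = 5.4e-04, edgeR) and *Slc13a4* (-0.67, adjusted p = 0.0023, edgeR) in addition to the 3. In the same setting *Igfbp2* moved from -0.04 to -0.33 (adjusted p = 0.367, edgeR), with 98.3 and 91.4 CPM in mice 17 and 18 and 65.1 and 63.7 CPM in mice 19 and 20, and *Slc47a1* moved from 0.16 to 0.08 (adjusted p = 0.855, edgeR). Without mouse 17 alone, *Igf2* (-0.31, adjusted p = 0.0044, edgeR) and *Aldh1a2* (-0.35, adjusted p = 0.0201, edgeR) joined the 3, whereas in the fit of all 16 mice *Slc6a13* was not called (adjusted p = 0.328, edgeR).

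By group means, the order of the 4 groups was the same for 8 of the 10 genes, with the old wild-type mice on top, the old V338Y mice next, and both young groups below them and within each other's spread. *Slc22a6*, *Slc6a13* and *Crabp2* had old groups that did not overlap each other. The young and old V338Y groups overlapped for *Crabp2*, so that for this gene 3 of the 4 groups were not separated beyond their spread. *Igfbp2* had nearly equal means in the old groups, 79.2 ± 13.5 CPM in wild-type and 79.6 ± 17.8 CPM in V338Y mice (SD, n = 4), which rested on mice 17 and 18, since mice 19 and 20 were below the wild-type mean. *Slc47a1* was highest in the old V338Y mice with 6.62 ± 1.29 CPM, which overlapped all other groups.

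Whether the age effect differed between the genotypes was tested as an interaction over the 16 mice, and 0 of the 10 genes passed (edgeR quasi-likelihood test and DESeq2), where 0.0535% of 16831 genes were called. It uses the same mice as the pairwise comparisons, of which the age effect in wild type and the genotype difference at 19 months share the old wild-type mice. *Crabp2* had the largest difference, a log2 value of -0.90 (standard error 0.27, adjusted p = 0.244, edgeR), followed by *Slc22a6* with -0.78 (standard error 0.20, adjusted p = 0.155, edgeR). These 2 had an unadjusted p under 0.05. With edgeR's likelihood-ratio test *Slc22a6* was called (log2 value -0.77, adjusted p = 0.0466). *Slc6a13* followed with -0.51, *Slc13a4* with -0.43 and *Igf2* with -0.36, and the difference was above 0 for *Igfbp2* (0.03) and *Slc47a1* (0.07) alone. Without mice 17 and 18 these 2 were at -0.26 and -0.01, *Igf2* was at -0.54, and 0 genes were called.

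Within groups, the 10 genes tended to move together. Among the young wild-type mice, mouse 9 was highest for 8 of the 10 genes and mouse 10 lowest for 7. Among the young V338Y mice, mouse 13 was highest for 6 and mouse 15 lowest for 7. In the old wild-type mice, number 13 was highest for 5 genes and 15 lowest for 7, and in the old V338Y mice, number 17 was highest for 8 and 20 lowest for 5. The mean deviation of a mouse from its group, over the 10 genes on the log2 scale, ran from -0.27 in the young wild-type mouse 10 to 0.25 in the young wild-type mouse 9. The old V338Y mice 17 and 18 had similar choroid plexus sums. Mouse 17 was highest for 8 genes, and mouse 18 was highest for 1 gene and lowest for 3. The part of choroid plexus tissue in these deviations was not tested. The correlation of a gene's deviations with the mean of the other 9, over 16 mice that share library and depth across genes, was 0.95 for *Slc13a4*, 0.89 for *Aldh1a2*, 0.88 for *Ptgds* and 0.75 for *Slc6a13*, and between 0.57 for *Igf2* and 0.68 for *Igfbp2* for the remaining 6.

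**Figure D3:**
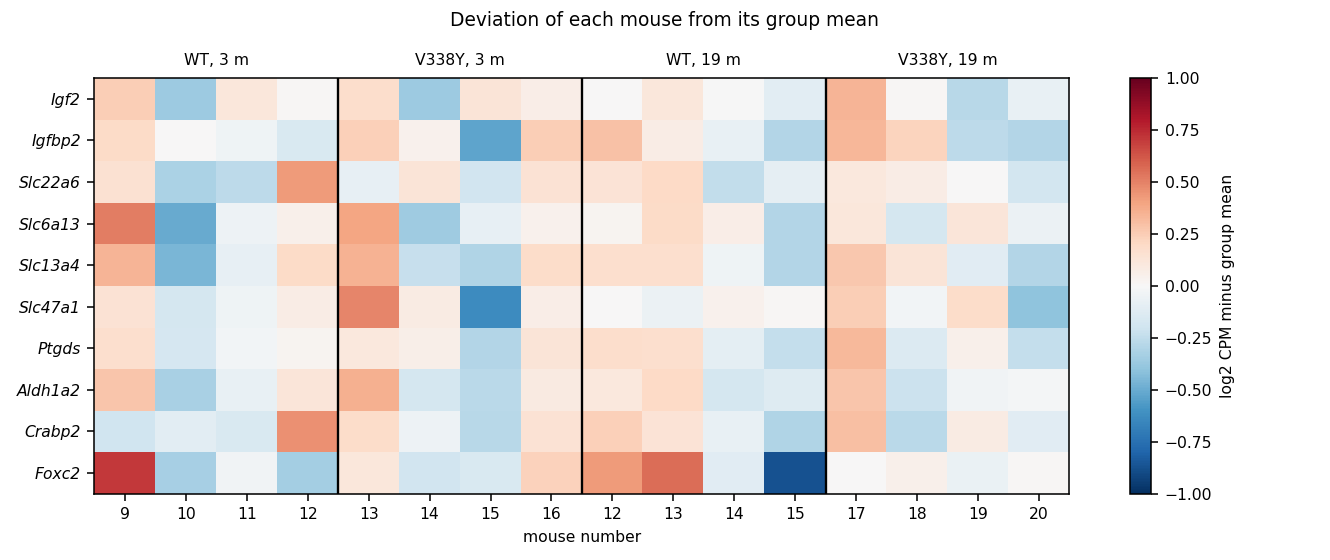
Log2 CPM of each mouse minus the mean of its group of 4 (colour), for the 10 genes (rows) and the 16 mice (columns, by mouse number). In some mice most genes deviated the same way, by unequal amounts. Examples are the old V338Y mouse 17, which was highest for 8 genes, and the old wild-type mouse 15, which was lowest for 7.

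Outside the 10 genes, those most like their mean deviation over the 16 mice were *Emilin1*, an elastic fibre glycoprotein (Pearson r = 0.92, Spearman rho = 0.90), *Nnat*, the imprinted gene neuronatin (r = 0.89, rho = 0.88), *Atp1b3*, a sodium pump subunit (r = 0.89, rho = 0.86), and *Ogn*, the matrix proteoglycan osteoglycin (r = 0.89, rho = 0.86). They were followed by *Pepd*, a dipeptidase that cleaves at proline (r = 0.87), *Errfi1*, an inhibitor of the epidermal growth factor receptor (r = 0.87), *Col3a1*, the chain of collagen III (r = 0.87), and *Maats1* (r = 0.86). These values describe 16 libraries and were ranked over all 16831 genes, so they carry no test.

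The insulin-like growth factor list held 13 further genes, of which 9 were tested by age in wild-type mice. A total of 8 rose and 0 fell, led by *Igfbp7*, which is abundant in vessels (log2 fold change 1.87), the receptor *Igf1r* (1.17), *Igfbp5* (0.97) and the insulin receptor *Insr* (0.66). In V338Y mice 7 of 10 rose, with *Igfbp7* at 2.05, *Igfbp5* at 0.86, *Igf1r* at 0.85 and *Insr* at 0.46. At 19 months 0 of 9 differed by genotype with edgeR or DESeq2, with 3 at an unadjusted p under 0.05, all lower in V338Y.

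Of the 15 tested genes on the list of organic ion, GABA, taurine and sulfate transporters, 11 rose and 2 fell with age in wild-type mice, and 10 rose in V338Y mice. *Slc22a8*, an organic anion transporter of the blood-brain barrier and meninges, rose by 1.9968 on the log2 scale, the betaine and GABA transporter *Slc6a12* by 1.74, the proline transporter *Slc6a20a* by 1.63 and the organic cation transporter *Slc22a2* by 1.28. The 2 that fell, named after their values were seen, were *Slc22a4* (log2 fold change -0.42) and the creatine transporter *Slc6a8* (-0.23). In V338Y mice these 4 rising genes changed by 1.76, 1.59, 1.13 and 1.33 in the same order. At 19 months 2 transporters were lower in V338Y than in wild-type mice, *Slc6a20a* (log2 fold change -0.44, adjusted p = 0.0419, edgeR) and the dicarboxylate transporter *Slc13a3* (-0.43, adjusted p = 0.0113, edgeR). *Slc22a8*, in contrast to its relative *Slc22a6*, had 33.1 ± 3.86 CPM in old wild-type and 30.7 ± 1.67 CPM in old V338Y mice (SD, n = 4; log2 fold change -0.13, adjusted p = 0.342, edgeR).

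Among 13 tested genes of prostaglandin synthesis and reception, 7 rose with age in wild-type mice, among them the prostacyclin synthase *Ptgis* (log2 fold change 2.04), the prostaglandin D2 receptor *Ptgdr* (1.71), the prostaglandin E synthase *Ptges* (1.36) and the thromboxane synthase *Tbxas1* (1.34). The 2 that fell, named after their values were seen, were *Ptges3* (-0.53) and *Ptges2* (-0.43). In V338Y mice 7 of 14 rose, with *Ptgdr* at 1.48, *Ptgis* at 1.18, *Tbxas1* at 1.16 and *Ptges* at 1.14, and *Ptges3* fell (-0.33). By genotype at 19 months 0 of 14 passed with edgeR or DESeq2, with 1 higher and 2 lower at an unadjusted p under 0.05.

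The retinoic acid pathway did not share one direction. Of 16 tested genes, 7 rose and 4 fell with age in wild-type mice, and the median log2 fold change was 0.12. Among all tested genes, 31.4% were called higher and 31.5% lower in that comparison. *Stra6*, the cellular receptor for retinol-binding protein, rose by 1.98, the reductase *Dhrs3* by 0.78 and the receptor *Rarg* by 0.67, while *Crabp1* fell by 1.37 on the log2 scale. In V338Y mice 6 rose and 2 fell (2 and 2 without the old mice 17 and 18), with *Stra6* at 1.58, *Dhrs3* at 0.78 and *Rxrg* at -0.59. At 19 months *Cyp26b1*, which degrades retinoic acid, was lower in V338Y mice (log2 fold change -0.51, adjusted p = 0.0253, edgeR), the 1 call of the list.

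Of 19 transcription factors and signals of the meninges, 13 rose and 2 fell with age in each genotype. In wild-type mice the chemokine *Cxcl12* rose by 2.64 on the log2 scale, from 27.8 ± 3.15 to 173 ± 19.4 CPM (SD, n = 4), the transcription factor *Tbx18* by 2.07, *Foxc1* by 1.77 and the bone morphogenetic protein *Bmp7* by 1.71. In V338Y mice *Cxcl12* rose by 2.46, *Foxc1* by 1.595 and *Tbx18* by 1.54. *Zic1* fell in both (-1.53 and -1.70), as did *Zic2* in wild-type (-0.60) and *Foxp2* in V338Y mice (-0.25), the latter 2 named after their values were seen. *Zic1* and *Zic2* are also genes of cerebellar granule cells, and the cerebellum markers fell with age in the same libraries, whose part in this result was not tested. Which cells the rise of the other genes came from was not tested either. Endothelial and mural markers rose in the same libraries, by a median log2 fold change of 2.30 and 2.19 in wild-type mice. At 19 months *Osr1* (log2 fold change -0.82, adjusted p = 0.0262, edgeR), *Tbx18* (-0.50, adjusted p = 0.0089, edgeR) and *Bmp7* (-0.34, adjusted p = 0.0119, edgeR) were lower in V338Y mice. Without the V338Y mice 17 and 18 the list had 1 call.

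**Figure D4:**
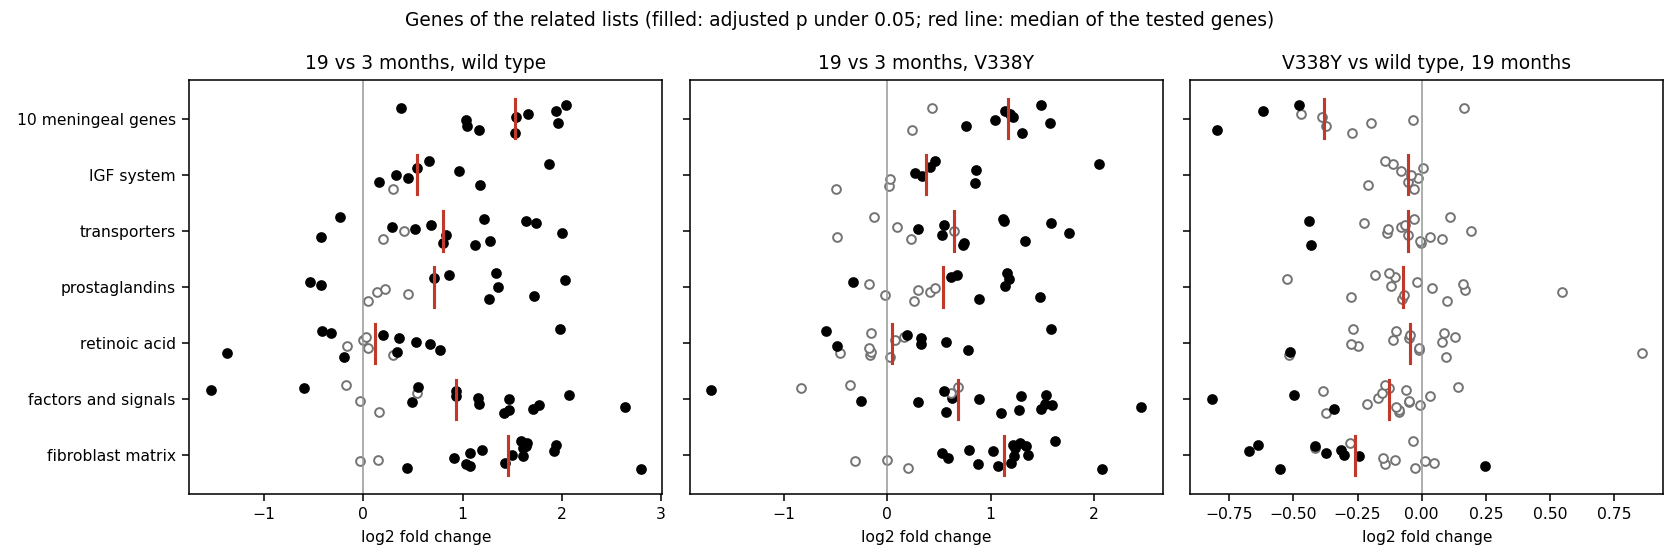
Log2 fold change (x axis) of every tested gene (points) of the 10 meningeal genes, 5 related lists and the fibroblast matrix list (y axis), by age in wild type, by age in V338Y and by genotype at 19 months. Filled points passed an adjusted p of 0.05 (edgeR) and the red line is the median of a list, which for the 10 genes was 1.53, 1.16 and -0.38. The x axis differs between panels.

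The fibroblast matrix list holds 18 collagen, proteoglycan and related genes known from fibroblasts. Whether their RNA came from these cells alone was not tested. A shared rise with age cannot check the label of the set, because markers of vessel cells and border macrophages rose as well. In wild-type mice the median log2 fold change was 2.30 for endothelium, 2.19 for mural cells and 1.81 for border macrophages. The summed level of the matrix list was 242 to 298 CPM in the young and 451 to 599 CPM in the old mice. Of its 18 genes, 16 rose with age in wild-type and 15 in V338Y mice, by a median log2 fold change of 1.46 and 1.13. Of its most abundant genes *Col1a2* rose by 1.04 and decorin (*Dcn*) by 1.61 in wild-type mice, and *Col6a1* had a log2 fold change of 0.15 (adjusted p = 0.109, edgeR). At 19 months 8 of the 18 were lower and 1, *Col1a1* (log2 fold change 0.25, named after its values were seen), was higher in V338Y mice, with a median of -0.26. The summed level was 514 to 599 CPM in old wild-type and 451 to 535 CPM in old V338Y mice. The difference of the age effects was called for *Fmod*, the matrix proteoglycan fibromodulin (log2 value -0.87, adjusted p = 0.0324, edgeR, named after its values were seen).

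Markers of vessel cells and of border macrophages moved with age too. The 11 endothelial markers, led by *Flt1*, *Slco1a4* and *Abcb1a*, all rose in both genotypes, and their sum went from 298 to 318 CPM in the young to 1266 to 1455 CPM in the old mice. All 10 mural cell markers, with *Rgs5*, *Vtn* and *Pdgfrb* as the most abundant, rose in both genotypes (sum 186 to 242 and 816 to 1005 CPM). The 7 border macrophage markers, led by *Mrc1*, *F13a1* and *Cd163*, rose in wild-type mice and 5 of them in V338Y mice (sum 13.8 to 20.5 and 47.2 to 65.1 CPM). The 14 choroid plexus markers, with transthyretin (*Ttr*), *Kl* and *Clic6* on top, had 1 higher and 1 lower with age in wild-type mice, and 0 calls in V338Y mice (edgeR and DESeq2, 0 at an unadjusted p under 0.05, 3 higher with the likelihood-ratio test, and 4 lower without mice 17 and 18). Their sum overlapped between all groups, at 395 to 657 and 341 to 805 CPM in young wild-type and V338Y mice and at 242 to 1031 and 166 to 2366 CPM in old ones. By genotype at 19 months 0 endothelial and 0 choroid plexus markers were called (edgeR and DESeq2), with 7 and 0 at an unadjusted p under 0.05, although 3 choroid plexus markers were called lower without mice 17 and 18, and 2 mural and 1 border macrophage markers were lower in V338Y mice. How far more vessel and surface tissue in the old samples and a different level in each cell account for the age differences of the 10 genes was not tested.

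Among the remaining marker lists, 9 of 9 microglia, 7 of 9 astrocyte and 6 of 10 oligodendrocyte markers rose with age in wild-type mice, and 9, 7 and 5 in V338Y mice. Of 10 cortical neuron markers, 3 rose and 4 fell in each genotype. That is near the share of all tested genes, of which 31.4% were called higher and 31.5% lower in wild-type and 23.1% and 25.7% in V338Y mice. All 10 cerebellum markers fell in both, with 3 called in V338Y mice when the old mice 17 and 18 were left out. Haemoglobin and other red cell genes rose (6 of 6 and 5 of 6), with a sum of 438 to 901 CPM in old wild-type and 385 to 458 CPM in old V338Y mice. Pituitary hormone genes summed to 1.19 to 2.75 CPM in the young, 76.3 to 116 CPM in the old wild-type and 21.3 to 72.2 CPM in the old V338Y mice. Skeletal muscle genes, listed because the labels speak of muscle in the extraction, summed to at most 11.9 CPM outside the old V338Y mice and to 20.4 to 157 CPM in these. At 19 months 2 microglia, 2 astrocyte and 2 pituitary genes were lower, and 1 oligodendrocyte and 1 cerebellum gene higher, in V338Y mice, and the astrocyte and oligodendrocyte calls were lost without mice 17 and 18. Of the cortical neuron, blood and skeletal muscle genes 0 were called (edgeR), with 0, 2 lower and 5 higher at an unadjusted p under 0.05, and DESeq2 called 3 muscle genes higher. The part of these admixtures in the genotype difference of *Slc22a6*, *Slc6a13* and *Crabp2* was not tested. With the V338Y mice 17 and 18 left out, the log2 fold changes of these genes were -0.70, -0.45 and -0.81. That setting removes the libraries highest in choroid plexus markers only. It keeps mouse 19, with 157 CPM of muscle genes, and mouse 20, with 72.2 CPM of pituitary genes.

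**Figure D5:**
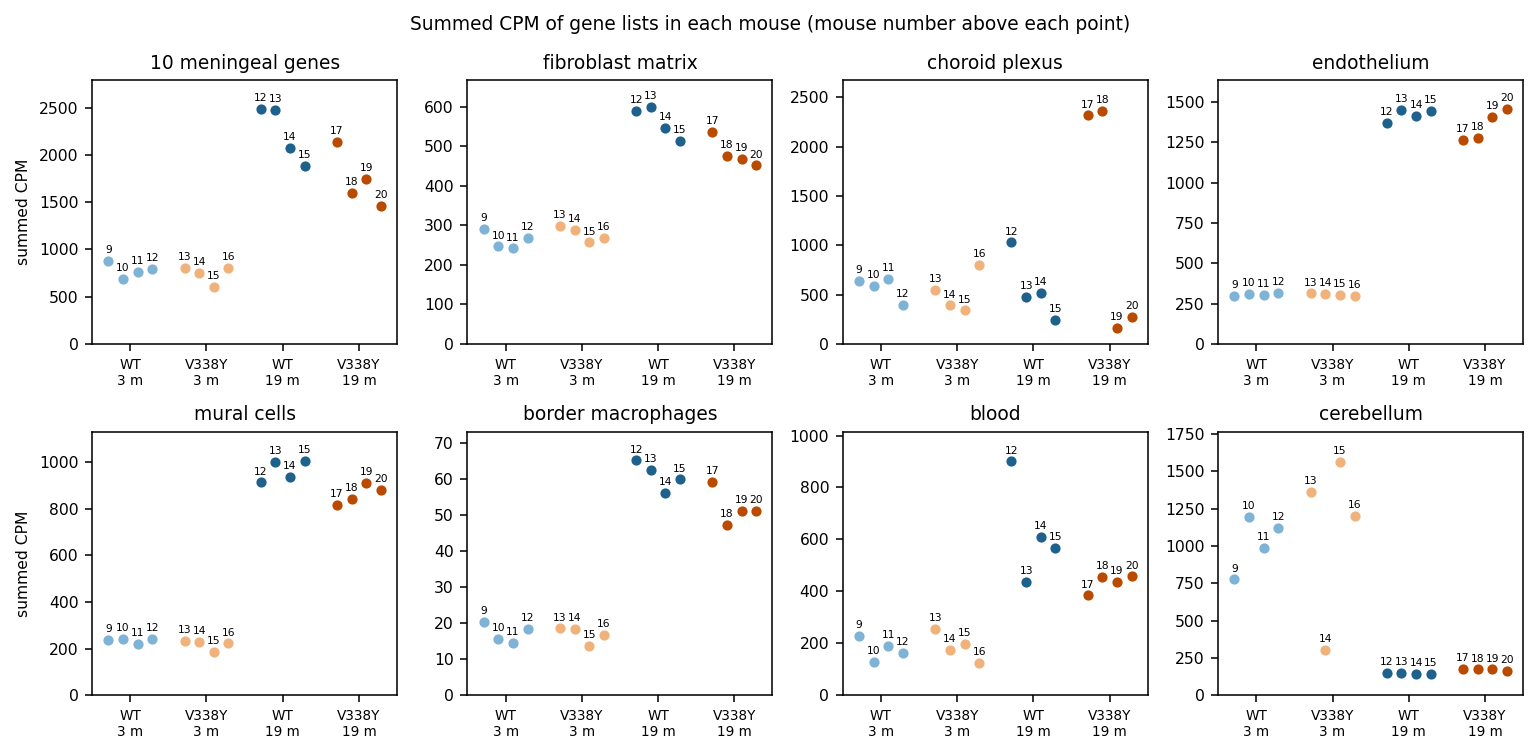
Summed CPM (y axis) of the 10 meningeal genes and of 7 marker lists in each mouse (points, with the mouse number), by genotype and age (x axis). The 10 genes summed to 603 to 881 CPM in young and 1464 to 2489 CPM in old mice, the choroid plexus list stood out in the old V338Y mice 17 and 18 with 2318 and 2366 CPM, and the cerebellum list was low in all old mice.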

How the data were processed

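RNA of the cortex of 16 female mice, as the study's methods describe them, was sequenced with a stranded mRNA kit. The deposited values are estimated counts per gene that the authors made by aligning and assigning reads, given as whole numbers for 39179 Ensembl identifiers. The sources differ on how they were made: the submitters' processing notes name STAR 2.4.2a, featureCounts, bcl2fastq 1.8.4 and GRCm38, and the study's methods another quantifier with Ensembl 75 and GRCm37. All 1495 values of 10000 or more end in 0, so the counts were rounded to 4 significant digits. Identifiers were matched to symbols with GENCODE M21 (37607 matched).

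Tests took genes that reached 10 counts in 2 or more mice of a compared group, and were run pairwise with edgeR 4.0.16 (TMM, robust quasi-likelihood test, Benjamini-Hochberg adjustment over all genes, threshold 0.05, R 4.3.3). The difference of the age effects was an interaction over 16 mice. CPM (counts scaled to a common library size) used TMM-scaled library sizes (factors 0.954 to 1.05), and log2 CPM a prior count of 2. Scripts were tested on simulated data. With 4 mice a group, a p-value sets the difference between groups against the spread between mice, estimated with information from all genes. The members and lists were chosen with earlier results of these data known. Named were all members, the up to 4 called genes of largest change in a related list, the up to 3 most abundant genes of a marker list, and the 8 genes most like the members. The values of 1 gene that this rule names are not reported here. Alternatives were the likelihood-ratio test, DESeq2 1.42.0, its size factors, library size only, other filters, 1 fit of all mice, each mouse left out and, chosen after seeing the data, the old V338Y mice 17 and 18 left out.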

Additional observations from a re-analysis of the deposited data

Results flagged for a closer look

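Of 40 groups of 4 mice (10 genes in 4 groups), 1 held a mouse far from the other 3. *Crabp2* measured 3.18 CPM in the young wild-type mouse 12, against 1.97 to 2.12 CPM in the other 3. On the log2 scale, this gap was 0.854 of the range of the group. Chance sets a mouse this far apart in about 1 in 20 groups, so 1 of 40 is no more than that. The value lies in the group that *Crabp2* is compared with by age in wild-type mice, where all old mice were above it.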

How the results depend on the processing

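Of 85 counts of members called under an alternative, 80 were within 1.5 times the count reported, and of 847 values of single genes 800 kept their direction and their side of the threshold. The genotype count at 19 months was 3, and 5 with the likelihood-ratio test (adding *Slc13a4* and *Ptgds*), 5 with no filter (adding *Slc13a4* and *Aldh1a2*) and 5 without the old V338Y mice 17 and 18 (adding *Igf2* and *Slc13a4*), whereas it was 2 in the fit of all 16 mice, which lost *Slc6a13* (adjusted p = 0.328, edgeR). With each mouse left out in turn it ranged from 3 to 5, with 5 without mouse 17, and the counts by age ranged from 9 to 10 in wild-type and from 8 to 9 in V338Y mice. For the difference of the age effects the count was 0, and 1 with the likelihood-ratio test (*Slc22a6*). *Slc22a6* and *Crabp2* passed at 19 months under all alternatives run, with adjusted p-values (edgeR or DESeq2) of 1.1e-10 to 0.0139 and of 3.8e-04 to 0.0369. None of the values that changed sign had passed the threshold. *Igfbp2* by genotype at 19 months was 0.0040 with DESeq2, and the difference of the age effects was -0.26 for *Igfbp2* and -0.0109 for *Slc47a1* without mice 17 and 18. With each mouse left out, the log2 fold change by genotype at 3 months ranged from -0.12 to 0.10 for *Igfbp2*, from -0.12 to 0.22 for *Slc6a13*, from -0.16 to 0.093 for *Slc13a4*, from -0.0743 to 0.26 for *Slc47a1*, from -0.19 to 0.029 for *Aldh1a2* and from -0.24 to 0.16 for *Foxc2*. At 19 months *Igfbp2* ranged from -0.14 to 0.0686 (-0.33 without both mice 17 and 18), and the difference of the age effects from -0.12 to 0.14 for *Igfbp2* and from -0.0942 to 0.24 for *Slc47a1*. The cause of these shifts was not tested. *Foxc2* was not tested by age in wild type under a filter of 10 counts in every mouse, and its 8 to 47 counts per mouse limit its precision. No paired analysis was possible because every mouse was sacrificed at a single age and belongs to a single group.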
